A study of Saccharomyces cerevisiae with 10 samples.

Results

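The genes described here are 10 of the enzymes that yeast uses to make ergosterol: ERG10, HMG1, HMG2, ERG1, ERG11, ERG25, ERG6, ERG2, ERG3 and ERG5. They were chosen by gene identifier, not by their measured values, and make up 10 of the 6816 single genes listed in each table. Messenger RNA levels were available as FPKM, a fragment count scaled to transcript length and sequencing depth, from 10 libraries of Saccharomyces cerevisiae strains in the S288C background. Each strain came from tetrad dissection of a heterozygous rsc diploid, and each combination of strain and medium was represented by 1 library.

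Experiment 1 held 6 strains kept for 10 generations and grown to log phase in YPD, a rich glucose medium: WT, htl1Δ, npl6Δ, rsc1Δ, rsc2Δ and rtt102Δ. The deleted genes encode subunits of RSC, a complex that slides and ejects nucleosomes. Experiment 2 held a WT and an htl1Δ strain, both carrying a construct labelled GALpr-HTL1. These strains were first grown to saturation in YPGR, then washed and kept for 10 generations of log-phase growth in YPGR or in YPD, which gave 4 libraries. The labels do not spell out YPGR or describe the construct further. With 1 library per strain and medium no test of a strain or medium difference was possible, and every difference below has no replicate check. A gene was counted as higher or lower at a 2-fold change, an absolute log2((FPKM + 1)/(FPKM + 1)) of at least 1, a rule of size among genes with at least 5 FPKM in 1 of the 2 libraries. All 10 genes met that level in each of the 9 comparisons.

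Ergosterol is the main sterol of yeast membranes, the fungal counterpart of cholesterol. Its synthesis begins with acetyl-CoA in the mevalonate pathway, where HMG-CoA reductase is the main controlled step, passes through squalene and lanosterol, and ends with a series of changes to the sterol rings and side chain. Several late steps consume oxygen and use heme or non-heme iron. Transcription of these genes is known to respond to sterol depletion through the zinc-cluster factors Upc2 and Ecm22, which bind the sterol response element, and to oxygen and heme through Hap1, Rox1 and Mot3.

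Each gene had the same coordinates in the tables, in the sacCer3 build, and in the R64 RefSeq annotation. The genes of the early steps were ERG10 (YPL028W) at chrXVI:498096-499292 on the plus strand, HMG1 (YML075C) at chrXIII:115734-118898 on the minus strand and HMG2 (YLR450W) at chrXII:1032627-1035764 on the plus strand. Squalene epoxidase and the genes acting on the first sterols were ERG1 (YGR175C) at chrVII:846933-848423 on the minus strand, ERG11 (YHR007C) at chrVIII:120091-121683 on the minus strand and ERG25 (YGR060W) at chrVII:610564-611493 on the plus strand. The genes of the last steps were ERG6 (YML008C) at chrXIII:251839-252990 on the minus strand, ERG2 (YMR202W) at chrXIII:667537-668205 on the plus strand, ERG3 (YLR056W) at chrXII:253861-254958 on the plus strand and ERG5 (YMR015C) at chrXIII:300869-302485 on the minus strand.

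The promoters of ERG1 and ERG11, the only genes of the 10 that passed the 2-fold rule in any comparison, are shown with those of ERG2, which holds the core sterol response letters, and ERG10, whose level differed least between media in WT apart from that of HMG2. Each sequence runs 5′ to 3′ on the gene's own strand, from 250 bases before the start codon to 50 bases from its A onwards, in the R64 RefSeq genome (sacCer3 coordinates). The windows lie at chrVII:848374-848673 on the minus strand, chrVIII:121634-121933 on the minus strand, chrXIII:667287-667586 on the plus strand and chrXVI:497846-498145 on the plus strand. Capitals mark every match on either strand to 6 searched motifs. The sterol response element was searched by its core spelling TCGTATA, by the variant spelling TCGTTTA and by the further spelling TCGTTCA. The others were the Rox1 core ATTGTT, the Hap1 motif CGGNNNTA and the motif of the RSC subunit Rsc3, CGCGCG.
ERG1: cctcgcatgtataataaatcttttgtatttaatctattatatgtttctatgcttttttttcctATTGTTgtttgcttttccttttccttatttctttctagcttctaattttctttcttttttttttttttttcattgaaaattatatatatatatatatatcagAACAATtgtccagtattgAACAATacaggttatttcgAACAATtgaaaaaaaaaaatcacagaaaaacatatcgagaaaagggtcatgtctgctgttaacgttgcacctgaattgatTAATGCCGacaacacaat
ERG11: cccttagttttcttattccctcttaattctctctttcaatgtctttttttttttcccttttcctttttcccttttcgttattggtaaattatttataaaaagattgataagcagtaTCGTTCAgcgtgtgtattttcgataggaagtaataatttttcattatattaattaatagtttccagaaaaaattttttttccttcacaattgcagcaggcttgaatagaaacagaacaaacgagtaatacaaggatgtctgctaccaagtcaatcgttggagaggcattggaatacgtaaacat
ERG2: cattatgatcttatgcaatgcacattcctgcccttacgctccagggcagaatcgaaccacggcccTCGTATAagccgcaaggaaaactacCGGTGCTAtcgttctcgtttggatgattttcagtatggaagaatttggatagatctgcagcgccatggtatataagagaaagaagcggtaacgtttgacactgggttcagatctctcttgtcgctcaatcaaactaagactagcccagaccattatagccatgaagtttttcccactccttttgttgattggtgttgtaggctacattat
ERG10: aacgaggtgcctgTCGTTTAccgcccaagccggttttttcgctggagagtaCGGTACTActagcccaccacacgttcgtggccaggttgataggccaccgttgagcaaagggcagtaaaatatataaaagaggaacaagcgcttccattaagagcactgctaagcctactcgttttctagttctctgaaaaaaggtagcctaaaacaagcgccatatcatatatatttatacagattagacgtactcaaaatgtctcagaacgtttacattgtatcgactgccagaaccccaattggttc

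In ERG1 the capitals are 4 copies of ATTGTT, 1 of them on the plus strand from base -187 and the others on the minus strand from bases -85, -67 and -48, counted from the start codon, and a CGGNNNTA match on the minus strand inside the coding sequence. ERG11 held TCGTTCA from base -134. That spelling was added to the search after the windows had been read, so its match in ERG11 is no independent observation. ERG2 held TCGTATA from base -185 and CGGNNNTA from base -160. In ERG10 TCGTTTA began at base -237 and CGGNNNTA at base -199.

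Of the 10 promoters, 2 (ERG2 and ERG10) held the core or the variant spelling, against 9.35% of all 6020 protein-coding promoters of the same length. Taken singly, TCGTATA was in 4.14% of all promoters, TCGTTTA in 5.47% and the later addition TCGTTCA in 3.82%. Among 15 other enzymes and electron donors of the pathway, 10 held the core or the variant spelling. ATTGTT was found in 5 of the 10 promoters (HMG1, HMG2, ERG1, ERG3 and ERG5) and in 35.2% of all promoters. CGGNNNTA was found in 4 of them (ERG10, ERG1, ERG2 and ERG5) and in 22.1% of all. CGCGCG was in none of the 10 and in 1.48% of all promoters. Some of these matches can overlap one another, and a match is a description of letters only. The 250 bases before the start codon were 23.6% G or C in ERG1 and 28.8% in ERG11, against 46.0% in ERG2, 44.8% in ERG10 and a median of 34.8% over all promoters.

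The fragments of a library, estimated within each comparison, numbered 9009000 to 11880000. A library that entered several comparisons had a different estimate in each. In experiment 1 the deleted gene read 2.09 FPKM or less in each deletion library. HTL1 in experiment 2, where all 4 libraries come from strains with the construct, read 2731 FPKM in WT and 2612 in htl1Δ in YPGR, and 555 in WT and 232 in htl1Δ in YPD, so its level does not check the deletion, and htl1Δ in experiment 2 stands for the label. Mating type and markers were not shared by all libraries. STE3, the alpha-cell receptor gene, was high in WT and npl6Δ, and STE2, its a-cell counterpart, in htl1Δ, rsc1Δ, rsc2Δ and rtt102Δ. In experiment 2 the htl1Δ library in YPD carried STE2, and MET17 at 145 FPKM, whereas the other 3 carried STE3 and had MET17 listed at 0. That library therefore differed from its YPGR partner in strain markers as well as in medium, and these cannot be told apart.

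Expression spanned more than an order of magnitude among the 10 genes. In the WT library of experiment 1, ERG11 was the highest at 542 FPKM, followed by ERG25, ERG2, ERG3, ERG6, ERG10 and ERG1, which ranged down to 382 FPKM. Well below these lay ERG5 at 66.2, HMG1 at 54.4 and HMG2 at 31.9 FPKM. FPKM is scaled per length, so these levels can be set beside each other. Among genes of at least 5 FPKM in that library, whose median was 57.6 FPKM, ERG11 stood at percentile 92.4 and HMG2 at percentile 30.1. The gap between the 7 high genes and the 3 low ones was present in all 10 libraries, while the order within the high genes was not. The highest gene was ERG11 in WT and rtt102Δ, ERG1 in htl1Δ, ERG25 in npl6Δ, rsc1Δ, rsc2Δ and both YPD libraries of experiment 2, and ERG6 in both YPGR libraries.

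**Figure D1:**
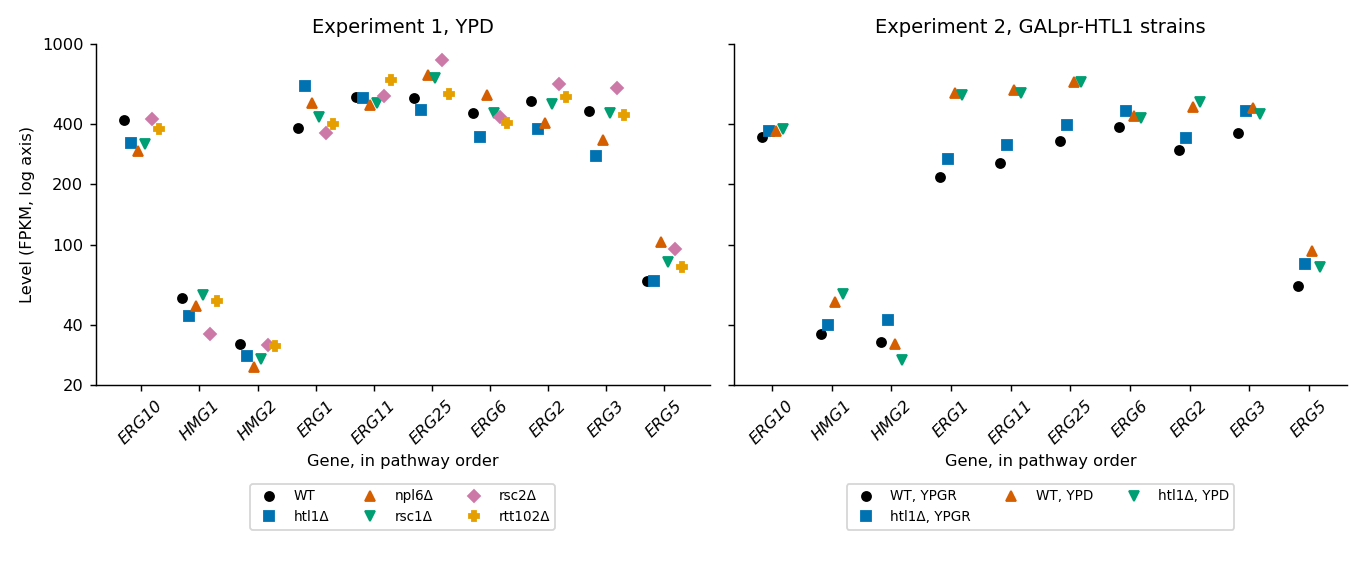
Level of each gene in FPKM (log axis) for the 6 libraries of experiment 1 (left) and the 4 of experiment 2 (right), 1 symbol per library, with each experiment put on 1 scale through the libraries its tables share. ERG5, HMG1 and HMG2 lie below the other 7 genes in every library, and ERG1, ERG11 and ERG25 are lowest in the YPGR libraries.

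The comparisons of experiment 1 asked which transcripts differ when a single RSC subunit is missing. None of the 10 ergosterol genes rose or fell 2-fold in any of the 5 deletion strains. Over all measured genes, 6.75% passed the rule in either direction in htl1Δ, 7.85% in npl6Δ, 4.15% in rsc1Δ, 6.35% in rsc2Δ and 2.44% in rtt102Δ. Counting also the comparisons of htl1Δ with WT in experiment 2, the 70 log2 ratios ran from -0.73 (ERG3 in htl1Δ) to 0.70 (ERG1 in htl1Δ), and 66 of them were smaller than 1.5-fold. The 5 comparisons share their WT library, so an unusual value there would enter all of them. The tables were normalized separately, and the levels given across strains are therefore approximate.

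Among the early genes, ERG10 encodes acetoacetyl-CoA thiolase, which joins acetyl-CoA units at the head of the pathway. Its level was 417 FPKM in WT, 319.6 in htl1Δ, 292 in npl6Δ, 319 in rsc1Δ, 421 in rsc2Δ and 378 in rtt102Δ. It was lowest in npl6Δ, with log2 ratios of -0.38 in htl1Δ, -0.51 in npl6Δ, -0.39 in rsc1Δ, 0.01 in rsc2Δ and -0.14 in rtt102Δ.

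HMG1 and HMG2 encode the paired HMG-CoA reductases, Hmg1 being known as the main isozyme in aerobic cells and Hmg2 as the one degraded when pathway products accumulate. HMG1 was measured at 54.4 FPKM in WT, 44.3 in htl1Δ, 49.5 in npl6Δ, 56.0 in rsc1Δ, 36.0 in rsc2Δ and 52.5 in rtt102Δ. It stood lowest in rsc2Δ, with a log2 ratio of -0.58. For HMG2 the levels were 31.9 FPKM in WT, 27.8 in htl1Δ, 24.5 in npl6Δ, 26.9 in rsc1Δ, 31.7 in rsc2Δ and 31.4 in rtt102Δ, and no deletion library exceeded WT, with log2 ratios from -0.37 in npl6Δ to -0.01 in rsc2Δ.

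ERG1 encodes squalene epoxidase, the oxygen-dependent enzyme that commits squalene to sterols and the target of terbinafine. Its transcript was measured at 382 FPKM in WT, 621 in htl1Δ, 510.0 in npl6Δ, 434 in rsc1Δ, 359 in rsc2Δ and 401 in rtt102Δ. The htl1Δ and npl6Δ libraries were highest, with log2 ratios of 0.70 and 0.42, and the others lay between -0.09 and 0.18.

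ERG11 encodes lanosterol demethylase, a cytochrome P450 that is the target of azole antifungals. It was present at 542 FPKM in WT, 539 in htl1Δ, 498 in npl6Δ, 510.3 in rsc1Δ, 549 in rsc2Δ and 662 in rtt102Δ. It was the steadiest of the 10 across these libraries apart from HMG2, the highest level being 1.33 times the lowest, and its largest log2 ratio was 0.29 in rtt102Δ.

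ERG25 encodes the iron-dependent oxidase that begins removal of the C-4 methyl groups. Levels of 540.3 FPKM in WT, 467 in htl1Δ, 700.0 in npl6Δ, 678 in rsc1Δ, 829 in rsc2Δ and 561 in rtt102Δ were recorded. Here rsc2Δ was highest and htl1Δ lowest, and the log2 ratios were -0.21 in htl1Δ, 0.37 in npl6Δ, 0.33 in rsc1Δ, 0.62 in rsc2Δ and 0.05 in rtt102Δ. ERG25 was the highest member of the group in all 3 of npl6Δ, rsc1Δ and rsc2Δ.

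The remaining genes act late. ERG6, the sterol methyltransferase that adds the side-chain carbon absent from cholesterol, was at 453 FPKM in WT, 345 in htl1Δ, 556 in npl6Δ, 455 in rsc1Δ, 435 in rsc2Δ and 405 in rtt102Δ. The htl1Δ and npl6Δ libraries lay on opposite sides of WT, with log2 ratios of -0.39 and 0.30. ERG2, the sterol isomerase, had 522 FPKM in WT, 376 in htl1Δ, 406 in npl6Δ, 503 in rsc1Δ, 631 in rsc2Δ and 546 in rtt102Δ. It was below WT in htl1Δ (-0.47) and npl6Δ (-0.36) and above it in rsc2Δ (0.27).

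ERG3, the desaturase that puts a double bond into the sterol B ring, was measured at 462 FPKM in WT, 277 in htl1Δ, 334 in npl6Δ, 455 in rsc1Δ, 606 in rsc2Δ and 444 in rtt102Δ. It showed the widest span of log2 ratios in experiment 1, from -0.73 in htl1Δ and -0.47 in npl6Δ to 0.39 in rsc2Δ. ERG5, the cytochrome P450 that desaturates the side chain, had levels of 66.2 FPKM in WT, 66.3 in htl1Δ, 103 in npl6Δ, 82.0 in rsc1Δ, 94.9 in rsc2Δ and 77.1 in rtt102Δ. None of the deletion libraries lay below WT for ERG5, and its log2 ratios were 0.00 in htl1Δ, 0.63 in npl6Δ, 0.30 in rsc1Δ, 0.51 in rsc2Δ and 0.22 in rtt102Δ.

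**Figure D2:**
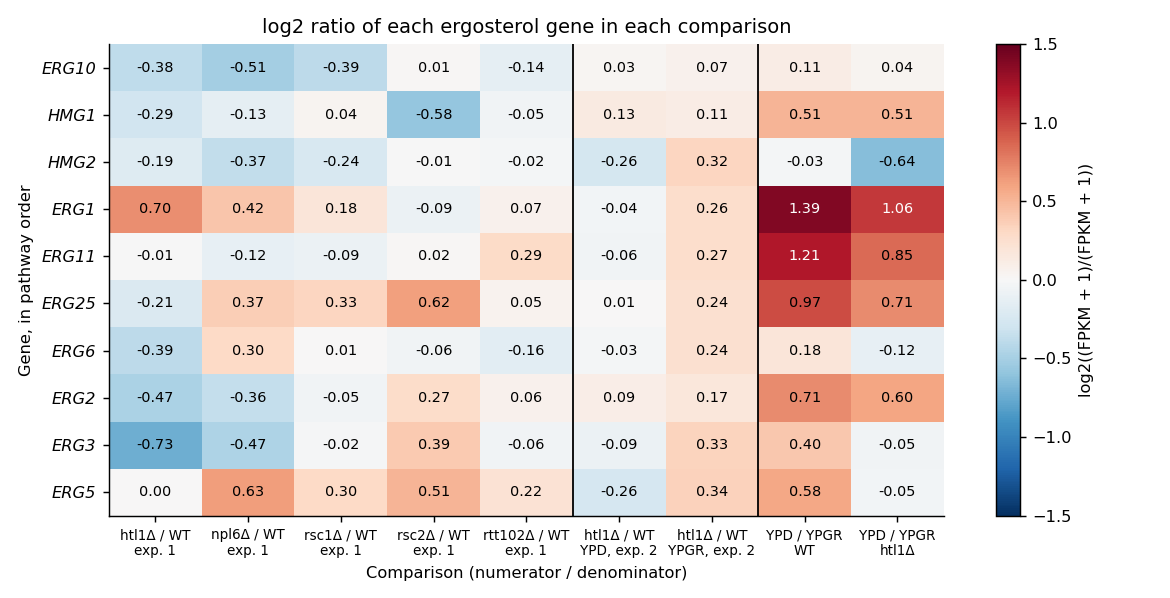
Log2 ratio of each gene (rows, in pathway order) in each of the 9 comparisons (columns), with numerator and denominator named under each column and the value printed in each cell. The 7 deletion columns hold no value beyond -0.73 or 0.70, and the medium columns hold the 3 values above 1.

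As a group, the genes were centred close to the median of all genes in 3 of the 5 deletion strains. The median log2 ratio of the 10 was -0.25 in htl1Δ, where 2 of 10 lay above 0, and -0.13 in npl6Δ, where 4 did. It was -0.01 in rsc1Δ, 0.02 in rsc2Δ and 0.01 in rtt102Δ, with 5, 6 and 5 genes above 0. Over all measured genes 50.0% lay above 0 in htl1Δ, 50.5% in both npl6Δ and rsc1Δ, 50.1% in rsc2Δ and 50.9% in rtt102Δ, and the all-gene medians rounded to 0.00 or 0.01. All 10 members lay between the 5th and 95th percentiles of all genes in each of the 5 comparisons. In absolute size, the members' median log2 ratio was 0.34 in htl1Δ and 0.37 in npl6Δ, against 0.27 and 0.29 over all genes. It was smaller than that of all genes in the others, at 0.13 against 0.19 in rsc1Δ, 0.18 against 0.26 in rsc2Δ and 0.07 against 0.11 in rtt102Δ. The summed FPKM of the 10 genes was 3471 in WT, 3082 in htl1Δ, 3473 in npl6Δ, 3518 in rsc1Δ, 3993 in rsc2Δ and 3557 in rtt102Δ. Fewer cells of a kind and less RNA per cell cannot be told apart in such bulk samples.

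Of these strains htl1Δ, rsc1Δ and rsc2Δ differ from WT in mating type. With rtt102Δ, which shares theirs, as the control instead, a choice made after seeing the data, again none of the 10 genes passed the 2-fold rule in htl1Δ, npl6Δ, rsc1Δ or rsc2Δ, and the group medians moved by -0.08 to 0.11, that of rsc1Δ from -0.01 to 0.06. This control does not share the mating type of npl6Δ, and it is not matched in markers. In rtt102Δ CAN1 read 0.13 FPKM, LYP1 0.06 and MET17 0, against 97.6, 160.5 and 146.2 in rsc2Δ. WT is not matched in markers either. MET17 read 154.5 FPKM in WT and 0 in htl1Δ, npl6Δ and rtt102Δ. LYS2 read 27.9 FPKM in WT, 0.05 in htl1Δ and rsc1Δ, and 0.11 in rsc2Δ. The part of these markers was not tested.

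**Figure D3:**
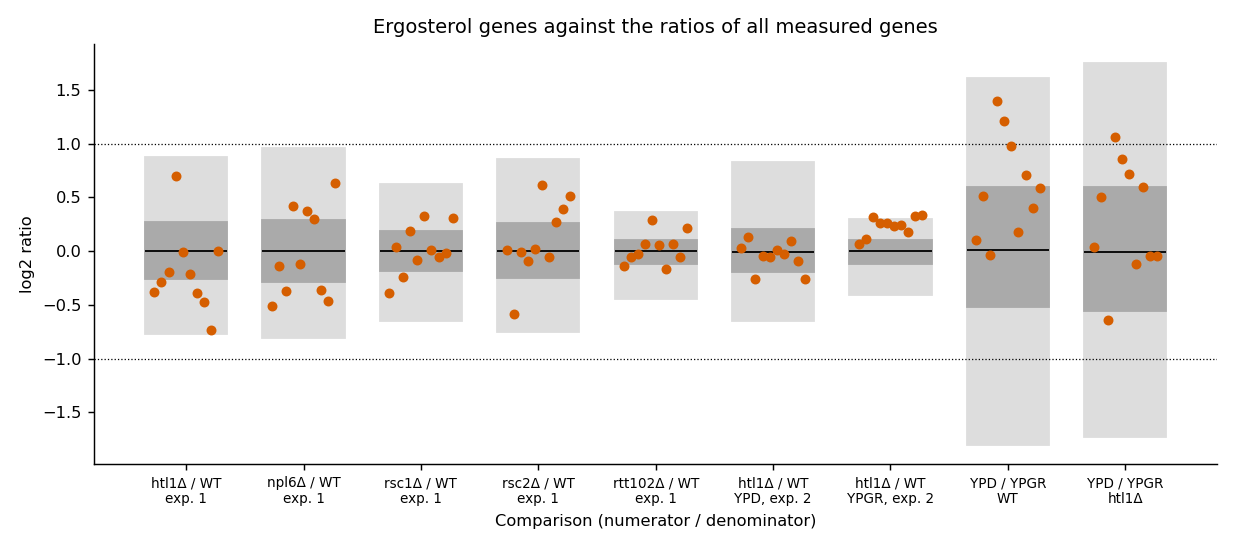
The log2 ratios of the 10 genes (orange points, 1 per gene) in each comparison, over the middle 90% (light grey) and middle 50% (dark grey) of all measured genes, with the median as a black line and the 2-fold rule dotted. The points stay within the light band everywhere except the YPGR comparison of htl1Δ with WT, where HMG2, ERG3 and ERG5 lie just above it.

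Experiment 2 compared htl1Δ with WT in strains that carry the HTL1 construct. None of the 10 genes passed the 2-fold rule in either medium, against 5.84% of all genes in YPD and 1.68% in YPGR. In YPD the genes lay close to WT, with a median log2 ratio of -0.04 and a range from -0.26 (HMG2) to 0.13 (HMG1). In YPGR all 10 lay above WT by a small amount, from 0.07 (ERG10) to 0.34 (ERG5), with a median of 0.25.

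By gene, the levels for the early steps were as follows. ERG10 stood at 343 FPKM in WT and 368 in htl1Δ in YPGR, and 369 in WT and 378 in htl1Δ in YPD. HMG1 was at 36.0 FPKM in WT and 39.8 in htl1Δ in YPGR, and 51.8 in WT and 56.9 in htl1Δ in YPD. HMG2 had 32.9 FPKM in WT and 42.1 in htl1Δ in YPGR, and 32.1 in WT and 26.7 in htl1Δ in YPD, its htl1Δ library being the higher in YPGR and the lower in YPD.

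ERG1 was measured at 218 FPKM in WT and 266 in htl1Δ in YPGR, and 573 in WT and 556 in htl1Δ in YPD. ERG11 was at 255 FPKM in WT and 314 in htl1Δ in YPGR, and 589 in WT and 567 in htl1Δ in YPD. ERG25 stood at 328 FPKM in WT and 395 in htl1Δ in YPGR, and 645 in WT and 648 in htl1Δ in YPD. In all of these the YPGR pair differed by more than the YPD pair, and in ERG1 and ERG11 the htl1Δ library was the higher of the YPGR pair and the lower of the YPD pair.

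For the late genes, ERG6 had 385 FPKM in WT and 465 in htl1Δ in YPGR, and 437 in WT and 428 in htl1Δ in YPD. ERG2 was at 296 FPKM in WT and 341 in htl1Δ in YPGR, and 484 in WT and 517 in htl1Δ in YPD. ERG3 stood at 361 FPKM in WT and 465 in htl1Δ in YPGR, and 479 in WT and 449 in htl1Δ in YPD, and ERG5 at 62.0 FPKM in WT and 80.5 in htl1Δ in YPGR, and 93.3 in WT and 77.9 in htl1Δ in YPD. ERG2 was higher in the htl1Δ library of both pairs, whereas ERG6, ERG3 and ERG5 were higher in YPGR only.

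In the YPGR pair 49.3% of all genes lay above 0 and their median was 0.00, the share against which the 10 of 10 members above 0 are read. The middle 90% of all genes ran from -0.41 to 0.30, and HMG2 (0.32), ERG3 (0.33) and ERG5 (0.34) lay above it. The members' percentiles ran from 67.6 to 96.2. Of the 15 other pathway genes, 12 were above 0, with a median of 0.07, among them NCP1 at 0.35 and ERG4 at 0.30, while CYB5 stood at -0.47. The authors' deposited table called none of the 10 members and 0 genes in all significant in this pair. In the YPD pair 4 of 10 members were above 0, against 48.9% of all genes, and their median absolute log2 ratio was 0.07 against 0.20 over all genes. The 2 libraries of the YPD pair differ in mating type and markers, and their part in these values was not tested.

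The medium comparisons set YPD against YPGR within each strain. HTL1 itself read 2731 FPKM in YPGR and 555 in YPD in WT, and 2612 and 232 in htl1Δ. The medium and the level of HTL1 therefore cannot be told apart in either strain. In WT, ERG1 and ERG11 were more than 2-fold higher in YPD, with log2 ratios of 1.39 and 1.21, and no member was 2-fold lower. In the strain labelled htl1Δ, ERG1 was again 2-fold higher in YPD (1.06), and ERG11 stood at 0.85. Over all genes, 13.4% were 2-fold higher and 12.9% lower in YPD in WT, and 13.9% and 13.1% in htl1Δ, so 2 and 1 of 10 higher are close to that background.

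Within the table of the WT medium comparison, ERG1 read 224 FPKM in YPGR and 591 in YPD, and ERG11 read 263 and 607. ERG25 read 338 and 665, which gave a log2 ratio of 0.97, just short of the rule. These genes encode successive oxygen-consuming activities around and after squalene, the ERG7 cyclase and ERG24 reductase acting between them. On the scale shared by the 4 libraries, the YPD levels of ERG1, ERG11 and ERG25 in WT and htl1Δ all lay above both YPGR levels, and the highest ERG1 level was 2.63 times the lowest.

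The other members moved less. In WT the log2 ratios were 0.71 for ERG2, 0.58 for ERG5, 0.51 for HMG1, 0.40 for ERG3, 0.18 for ERG6, 0.11 for ERG10 and -0.03 for HMG2. In htl1Δ they were 0.71 for ERG25, 0.60 for ERG2, 0.51 for HMG1, 0.04 for ERG10, -0.05 for both ERG3 and ERG5, -0.12 for ERG6 and -0.64 for HMG2. The median of the 10 was 0.55 in WT, with 9 above 0, and 0.27 in htl1Δ, with 6 above 0, while 50.5% and 49.7% of all genes lay above 0. The ratio in htl1Δ minus that in WT ran from -0.63 (ERG5) to -0.01 (HMG1). As the same 4 libraries enter, these differences restate the ratios of the YPD and YPGR pairs above, and none could be tested. The htl1Δ pair sets libraries of different mating type and markers against each other, while the WT pair does not, and the part of these in the htl1Δ values was not tested. The summed FPKM of the 10 genes was 2317 in WT and 2777 in htl1Δ in YPGR, and 3754 and 3703 in YPD.

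In absolute size the group did not stand out between media. The median absolute log2 ratio of the members was 0.55 in WT, against 0.56 over all genes, and 0.55 in htl1Δ, against 0.58. The members' percentiles among all genes ran from 47.8 to 93.0 in WT and from 22.1 to 87.0 in htl1Δ.

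**Figure D4:**
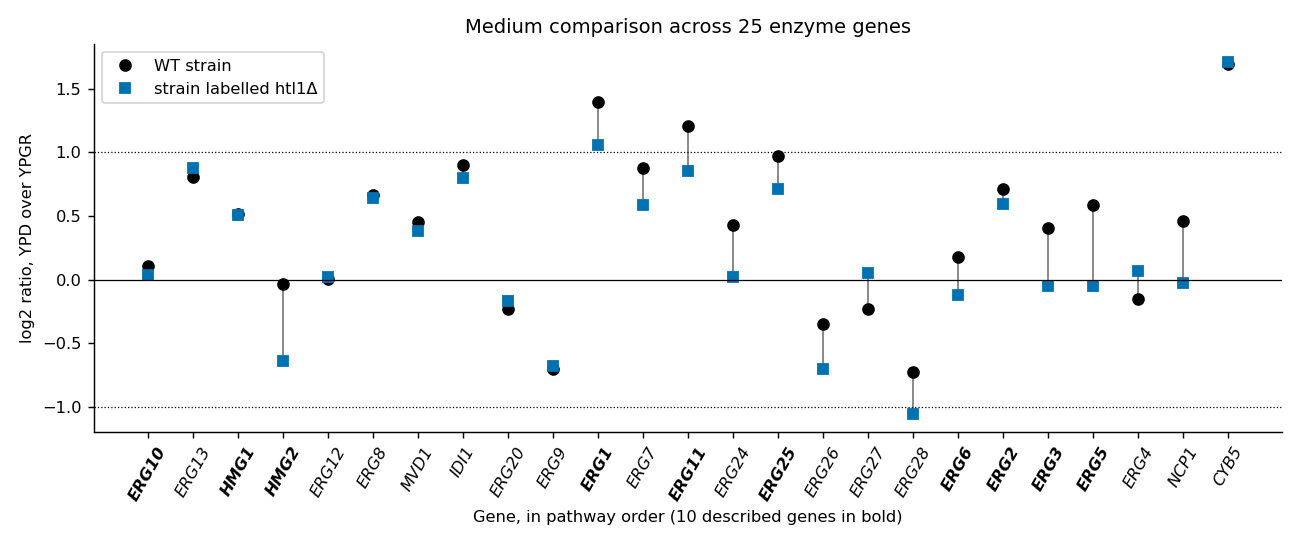
Log2 ratio of YPD over YPGR for 25 pathway genes in pathway order, the 10 described genes in bold, for the WT strain (circles) and the strain labelled htl1Δ (squares), with the 2-fold rule dotted. ERG1 passes the rule in both strains and ERG11 in WT, ERG25 reaches 0.97 in WT, and CYB5 is highest at 1.69 and 1.71.

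The HMG-CoA reductase pair differed in its balance between libraries. In experiment 1 the ratio of HMG1 to HMG2, both in FPKM, was 1.70 in WT, 1.59 in htl1Δ, 2.02 in npl6Δ, 2.08 in rsc1Δ, 1.14 in rsc2Δ and 1.67 in rtt102Δ. In experiment 2 it was 1.10 in WT and 0.94 in htl1Δ in YPGR, and 1.61 and 2.13 in YPD. HMG1 was thus the more abundant transcript in 9 of the 10 libraries, the exception being htl1Δ in YPGR. Both YPGR libraries and rsc2Δ had the lowest ratios, and rsc2Δ reached its value with the lowest HMG1 of experiment 1, HMG2 differing from WT by a log2 ratio of only -0.01.

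**Figure D5:**
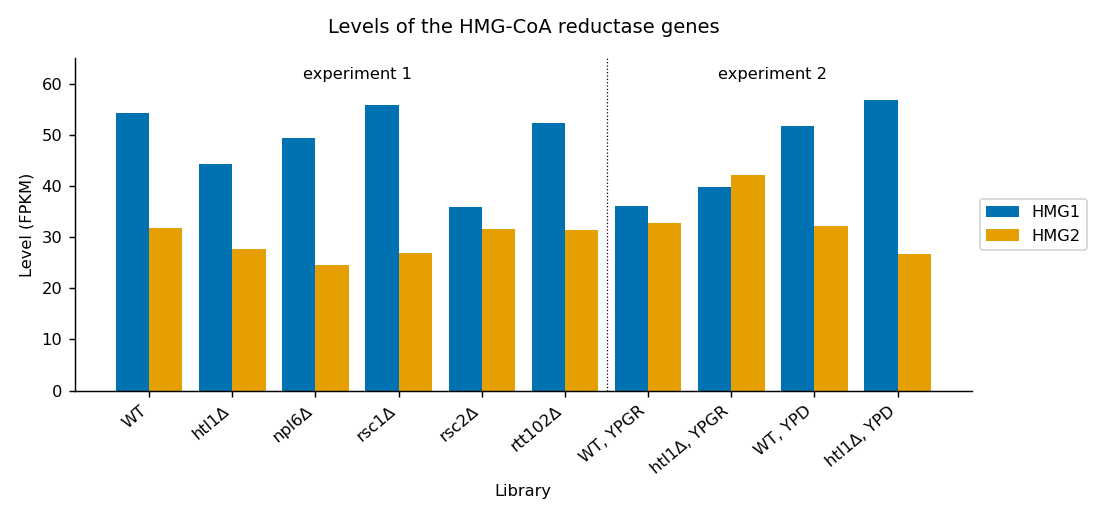
Levels of HMG1 (blue) and HMG2 (orange) in FPKM in each of the 10 libraries, with experiment 1 on the left of the dotted line and experiment 2 on the right. HMG1 is the taller bar except in htl1Δ in YPGR, and the bars are nearly level in rsc2Δ and in WT in YPGR.

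The rest of the pathway was read from 15 genes: ERG13, ERG12, ERG8, MVD1, IDI1, ERG20 and ERG9 before squalene, ERG7, ERG24, ERG26, ERG27, ERG28 and ERG4 after it, and the electron donors NCP1 and CYB5. None of the 15 rose or fell 2-fold in any deletion comparison, as was true of the 10 members. Their median log2 ratios ran from -0.15 (htl1Δ and npl6Δ) to 0.07 (htl1Δ in YPGR). The values nearest the rule were ERG9, squalene synthase, at -0.97 in npl6Δ and ERG20, farnesyl diphosphate synthase, at -0.93 in rsc2Δ. ERG9 stood at 202 FPKM in WT and 102 in npl6Δ, and ERG20 at 407 in WT and 214 in rsc2Δ. In rsc2Δ CYB5 was at 0.81, with 256 FPKM in WT and 448 in rsc2Δ. ERG26, a sterol dehydrogenase, was at -0.71 in htl1Δ, -0.67 in npl6Δ and -0.68 in rsc1Δ.

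Between media, CYB5, the cytochrome b5 that passes electrons to sterol desaturases, was 2-fold higher in YPD in both strains (1.69 in WT and 1.71 in htl1Δ). ERG28, a scaffold protein of the demethylation enzymes, was 2-fold lower in htl1Δ (-1.05) and stood at -0.72 in WT. So 1 of the 15 was higher in each strain, against 13.4% of all genes in WT and 13.9% in htl1Δ. In htl1Δ 1 of the 15 was lower, against 13.1% of all genes. The YPD and YPGR htl1Δ libraries also differ in mating type and markers, whose part was not tested. The other 13 passed in neither strain. The highest of them were IDI1 (0.90 in WT and 0.80 in htl1Δ), ERG7 (0.88 and 0.59), ERG13 (0.80 and 0.88) and ERG8 (0.66 and 0.64), and ERG9 was at -0.70 and -0.68. The median of the 15 was 0.43 in WT and 0.05 in htl1Δ. Within the pathway, then, values above and below 0 were found on both sides of squalene.

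Among 6 regulators of sterol and oxygen-responsive genes, ROX1, the repressor of hypoxic genes, was the only one to pass the rule in a deletion comparison. ROX1 was measured at 92.4 FPKM in WT, 239.8 in htl1Δ, 353 in npl6Δ, 185 in rsc1Δ, 213 in rsc2Δ and 124 in rtt102Δ. It rose in htl1Δ (1.37), npl6Δ (1.92) and rsc2Δ (1.20), and stood at 0.99 in rsc1Δ and 0.42 in rtt102Δ, all against the same WT library. That WT level was the lowest of experiment 1, so a low reading there would raise every one of these ratios. Over all genes 6.75% passed the rule in either direction in htl1Δ, 7.85% in npl6Δ and 6.35% in rsc2Δ. In experiment 2 the ROX1 ratio of htl1Δ to WT was -0.91 in YPD, where the libraries differ in mating type and markers, and -0.15 in YPGR. UPC2 and ECM22 passed only between media in htl1Δ, where they fell in YPD (-1.47 and -1.34). They were 2 of 6 regulators, against 13.1% of all genes lower there. Those htl1Δ libraries also differ in mating type, markers and HTL1 level, whose part was not tested. In WT, UPC2 and ECM22 stood at -0.72 and -0.56. HAP1, MOT3 and SUT1 passed in none of the 9 comparisons.

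Of 5 genes regulated by oxygen, 3 fell in htl1Δ against WT in YPD in experiment 2: COX5B (-1.60), AAC3 (-1.09) and ANB1 (-1.05), while OLE1 and CYC7 did not pass. Over all genes 125 of 6081 were 2-fold lower there, and 5.84% passed in either direction. That htl1Δ library is the one that differs from its partner in mating type and markers, whose part in these values was not tested. No gene of this list passed in the experiment 1 comparisons. In YPD over YPGR in WT, AAC3 (2.72) and ANB1 (1.63) rose and CYC7 fell (-2.42). In htl1Δ AAC3 rose (1.29) and CYC7 (-2.22) and COX5B (-1.82) fell. Heme synthesis, which supplies Erg11 and Erg5, had 1 of 8 genes past the rule in each strain between media, HEM13 in WT (1.27) and HEM15 in htl1Δ (-1.08), and none in a deletion comparison. Over all genes 13.4% rose and 12.9% fell in YPD in WT, and 13.9% and 13.1% in htl1Δ, so 1 of 8 does not stand out from that background.

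Yeh1 and Yeh2 are among the enzymes that cleave sterol esters. In YPD, YEH1 rose in WT (1.46) and htl1Δ (2.12), as did YEH2 (1.05 and 1.41). These were 2 of 5 genes of the sterol ester list in each strain, against 13.4% and 13.9% of all genes. The lowest of that list were TGL1 in WT (-0.17) and ARE2 in htl1Δ (-0.78). YEH1 also rose in rsc2Δ over WT (1.05). In sterol transport OSH2 fell in YPD in both strains (-1.38 and -1.75), the 1 gene of 12 listed to pass, against 12.9% and 13.1% of all genes lower. Of 9 genes for Hmg2 and Erg1 turnover, NSG1, which encodes an Hmg2-binding protein, rose in YPD in WT (1.17) and stood at 0.96 in htl1Δ. It was the 1 gene of those 9 to pass, against 13.4% of all genes higher in WT. In the dolichol branch, which shares its precursors with ergosterol, RER2 rose in YPD in both strains (1.49 and 1.29). SRT1 rose in htl1Δ (1.04), where it was low at 1.95 and 5.04 FPKM. These were 1 of 4 measured genes of other isoprenoid branches in WT and 2 of 5 in htl1Δ, against 13.4% and 13.9% of all genes.

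Other lipid genes were read for comparison. The fatty acid elongases ELO3 (1.84 in both strains) and ELO2 (1.57 and 1.72) rose in YPD over YPGR, and ELO1 in WT (1.04). These were 3 of 6 fatty acid synthesis genes in WT and 2 of 6 in htl1Δ, against 13.4% and 13.9% of all genes higher. FAS2 was the lowest of that list, at -0.17 and -0.28. In phospholipid synthesis OPI3, a phospholipid methyltransferase, rose in htl1Δ (1.43) and npl6Δ (1.67) in experiment 1 and fell in YPD over YPGR in WT (-2.21) and htl1Δ (-1.25). INO1 (-1.13) and CHO1 (-1.03) fell in WT as well. Between media 3 of 6 phospholipid genes were thus lower in WT and 1 of 6 in htl1Δ, against 12.9% and 13.1% of all genes. The 2 htl1Δ libraries also differ in mating type and markers, whose part was not tested. None of the 10 ergosterol genes had a ratio as large as these OPI3 values in the same comparison.

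Iron enzymes are encoded by 4 of the 10 members: ERG3 and ERG25 with non-heme iron and ERG5 and ERG11 with heme. In experiment 1, 1 of the 4 lay above 0 in htl1Δ (median -0.11), 2 in npl6Δ (0.12), 2 in rsc1Δ (0.14), 4 in rsc2Δ (0.45) and 3 in rtt102Δ (0.14). In experiment 2, 1 of the 4 did so in htl1Δ over WT in YPD (-0.07) and all 4 in YPGR (0.30), where all 10 members did. Between media all 4 did so in WT (0.78), as did 9 of the 10 members, and 2 in htl1Δ (0.33). Nothing particular to the iron enzymes is read from these counts.

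The genes outside the group whose 9 ratios lay nearest the members' medians, by root mean square difference over 5884 genes measured in all tables, were SUB2 (0.08), GUS1 (0.09), MSC7 (0.10), SPT6 (0.10) and TAF14 (0.10). These 5 were picked as the smallest differences. Those of the members themselves from the same medians ran from 0.19 for ERG2, at rank 259, to 0.54 for ERG1, at rank 3548. Among the 15 other pathway genes the closest were NCP1 at rank 157 and ERG24 at rank 252, and the farthest was CYB5 at rank 4603.

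In the authors' deposited table of each comparison none of the 10 genes was called significant, and none had a p-value under 0.05. The lowest p-values there were 0.1369 for ERG5 in htl1Δ over WT in YPGR, 0.14325 for ERG3 in htl1Δ and 0.14915 for ERG25 in rsc2Δ, and the lowest adjusted value was 0.998. For ERG1 between media in WT, the authors' deposited table gave 0.222. Those tests compare pairs of libraries, not strains or media.

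The least covered member, HMG2, had an estimated 742 fragments in the library where it had fewest, npl6Δ, which gives a counting SD of 3.67%, and ERG11 reached an estimated 8630. Variation between cultures is not included and could not be measured here.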

How the data were processed

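Polyadenylated RNA of 10 yeast libraries was read on an Illumina HiSeq, as the labels' protocols state. Per the submitters' processing notes the tools were TopHat, Cufflinks and Cuffdiff and the build sacCer3. Tool versions and strand setting were not given in the sources used here. Deposited by the authors were 9 tables of library pairs, in which the FPKM values were scaled by Cuffdiff within a table, per the file headers. Each deposited p-value and q-value comes from a Cuffdiff comparison of one library with another and is cited only as the authors' own. The log2 fold change column that the authors deposited was not used.

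Each table had 6931 rows. The 115 naming several genes were left out, leaving 6816. Names came from the RefSeq R64 annotation, which matched 5859 identifiers, 5373 with the same coordinates, including all 10 members. Measured genes had the authors' status OK and reached 5 FPKM in 1 or both libraries. Ratios are log2((FPKM + 1)/(FPKM + 1)), a pseudocount of 1 FPKM that understates differences of low genes; a log2 ratio of 1 or more in size was called. For levels, the tables of an experiment were put on 1 scale through shared libraries. Fragments were estimated from the steps of low FPKM values, with transcript lengths shortened by 200 bp; 85.9% to 90.1% of values were then whole to within 0.1. Counting errors cover counting only, and reads are not independent molecules.

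The 10 members, the lists of other genes and the alternatives were chosen with earlier results of these data known. The named genes are all 10 members, all 15 other pathway genes, and from each of the other lists at most 4 genes per comparison past 2-fold, largest first. Genes that failed the rule in 1 comparison and passed in another were given values in both. In some lists the lowest gene was also named. Most alike genes were the 5 with the smallest root mean square difference from the members' median ratios. Promoters were read from the R64 genome for 6020 protein-coding genes, and motifs were matched by letters on both strands.

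The 2-fold rule was run on simulated data with planted changes of 1.5 and 2.0 log2 units and an assumed scatter between libraries. From the levels of npl6Δ and WT, it called 98% and 100% of these and 0% of unchanged genes. Since the planted changes lie above the cut and the scatter was not measured, this checks the calculation only. It gives no error rate for these data. Scripts used Python 3.11.15, pandas 2.3.3, NumPy 2.4.6 and Matplotlib 3.10.9.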

Additional observations from a re-analysis of the deposited data

Results flagged for a closer look

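Some ergosterol genes lay on opposite sides of 0 in contrasts of the same label from different experiments, media or strains, with ratios more than 1.5-fold apart. These differences could not be tested, since each group held 1 library. ERG3 had a log2 ratio of htl1Δ to WT of -0.73 in experiment 1 and 0.33 in YPGR, a difference of 1.07. For ERG2 the ratios were -0.47 and 0.17, a difference of 0.65, and for ERG6 they were -0.39 and 0.24, a difference of 0.64. ERG1 stood at 0.70 in experiment 1 and -0.04 in the YPD pair of experiment 2, a difference of -0.74, although its YPD value was 0.04 when centred on genes of at least 100 FPKM. ERG5 stood at -0.26 in the YPD pair and 0.34 in the YPGR pair, a difference of 0.60. Between media, ERG5 was at 0.58 in WT and -0.05 in htl1Δ, a difference of -0.63. The experiments differ in strains, the HTL1 construct and growth. HTL1 read 293 FPKM in WT and 2.09 in htl1Δ in experiment 1, but 2731 and 2612 in the YPGR pair. The htl1Δ library of experiment 1 differs from WT in mating type, and that of the YPGR pair does not. The YPD htl1Δ library of experiment 2 differs from both its partners in mating type and markers. The part of these differences in the values was not tested.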

How the results depend on the processing

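No paired analysis was possible because each group held 1 library. The group medians, counts and gene ratios were recomputed under 7 alternatives, and under 2 more chosen after seeing the data, centring on genes of at least 100 FPKM and rtt102Δ as the control. Of 988 recomputed values 986 stayed within 1.5-fold of the reported value and, for gene ratios, also on their side of the 2-fold rule. The other 2 moved, and no value past the rule changed sign. Dropping the filter, a filter of 20 FPKM and admitting rows of any status could not change any member value. All members had status OK and passed each filter in every comparison. Joining the rule with the authors' call could change counts only. The total of unmoved values therefore includes many that were fixed in advance. Values near 0 did change sign, 16 in all and none above 0.11 in reported size, under the 2 added alternatives only. They include 4 group medians: rsc1Δ from -0.01 to 0.06 with rtt102Δ as the control, and, centred on genes of at least 100 FPKM, rsc2Δ from 0.02 to -0.08, rtt102Δ from 0.01 to -0.03 and htl1Δ in YPD from -0.04 to 0.05. When the rule was joined with the authors' call, the members counted as higher in YPD went from 2 to 0 in WT and from 1 to 0 in htl1Δ, since the authors' deposited table called none. A pseudocount of 10 FPKM shifted the group medians by -0.07 to 0.02, and centring on genes of at least 100 FPKM by -0.13 to 0.08. With 1 library per group, differences between strains or media cannot be separated from variation between cultures.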
